A study of Zea mays with 12 samples.

Results

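Developing maize seeds were profiled by RNA-seq, and 40 of the 41430 gene models in the deposited tables stood high at 10 days after pollination (DAP) and at least 6-fold lower at 15 DAP in both maize lines of the study. The members were chosen from the deposited normalized signal, a read estimate scaled once per library. A model was a member when the mean of its 3 libraries was at least 100 at 10 DAP in each line and its 15 DAP mean was at most one sixth of its 10 DAP mean in each line. Of the 15041 models that reached the level of 100 in both lines, 0.266% met the rule. The same 10 and 15 DAP values chose the members, so their drop between the stages is a description here and carries no test.

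The 4 groups held 3 libraries each, 12 in all: whole seeds of the wild-type inbred line Q319 at 10 DAP and at 15 DAP, and whole seeds of the transgenic line L100 at the same stages. The labels name neither the gene that L100 carries nor its promoter, nor the line it was made in, nor how many transformation events or plants were sampled. Whether the 3 libraries of a group came from separate plants is not said, so a p-value here is set against the scatter of the libraries alone, which may be technical. Library totals ran from 14014035 to 22370566 counts, and a count of 3, used here as the floor of detection, equalled 2.48 to 3.8 units of normalized signal, which covers counting error only.

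Between these stages a maize kernel passes from endosperm formation and cell division to grain filling. Cells of the basal endosperm differentiate into a transfer layer that takes up sugar from the mother plant, while the central starchy endosperm starts to accumulate zein storage proteins and starch. Maternal tissues, the nucellus and the pericarp, are part of the same seed and are crushed or stretched as the endosperm grows. The libraries were of whole seeds, so fewer cells of a type and less RNA per cell cannot be told apart.

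The 40 members took 0.199 to 0.312% of all counts in the 10 DAP libraries and 0.010 to 0.013% in the 15 DAP libraries. Their summed normalized signal was 30370 to 39361 in wild type at 10 DAP and 35155 to 44459 in L100 at 10 DAP. At 15 DAP it was 1935 to 2399 in wild type and 1999 to 2532 in L100. At each stage the ranges of the lines overlapped. The median member stood at 339.6 to 466.4 in the wild-type libraries and 334.9 to 447.3 in the L100 libraries at 10 DAP, and at 11.7 to 18.6 and 15.1 to 18.4 at 15 DAP.

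**Figure D1:**
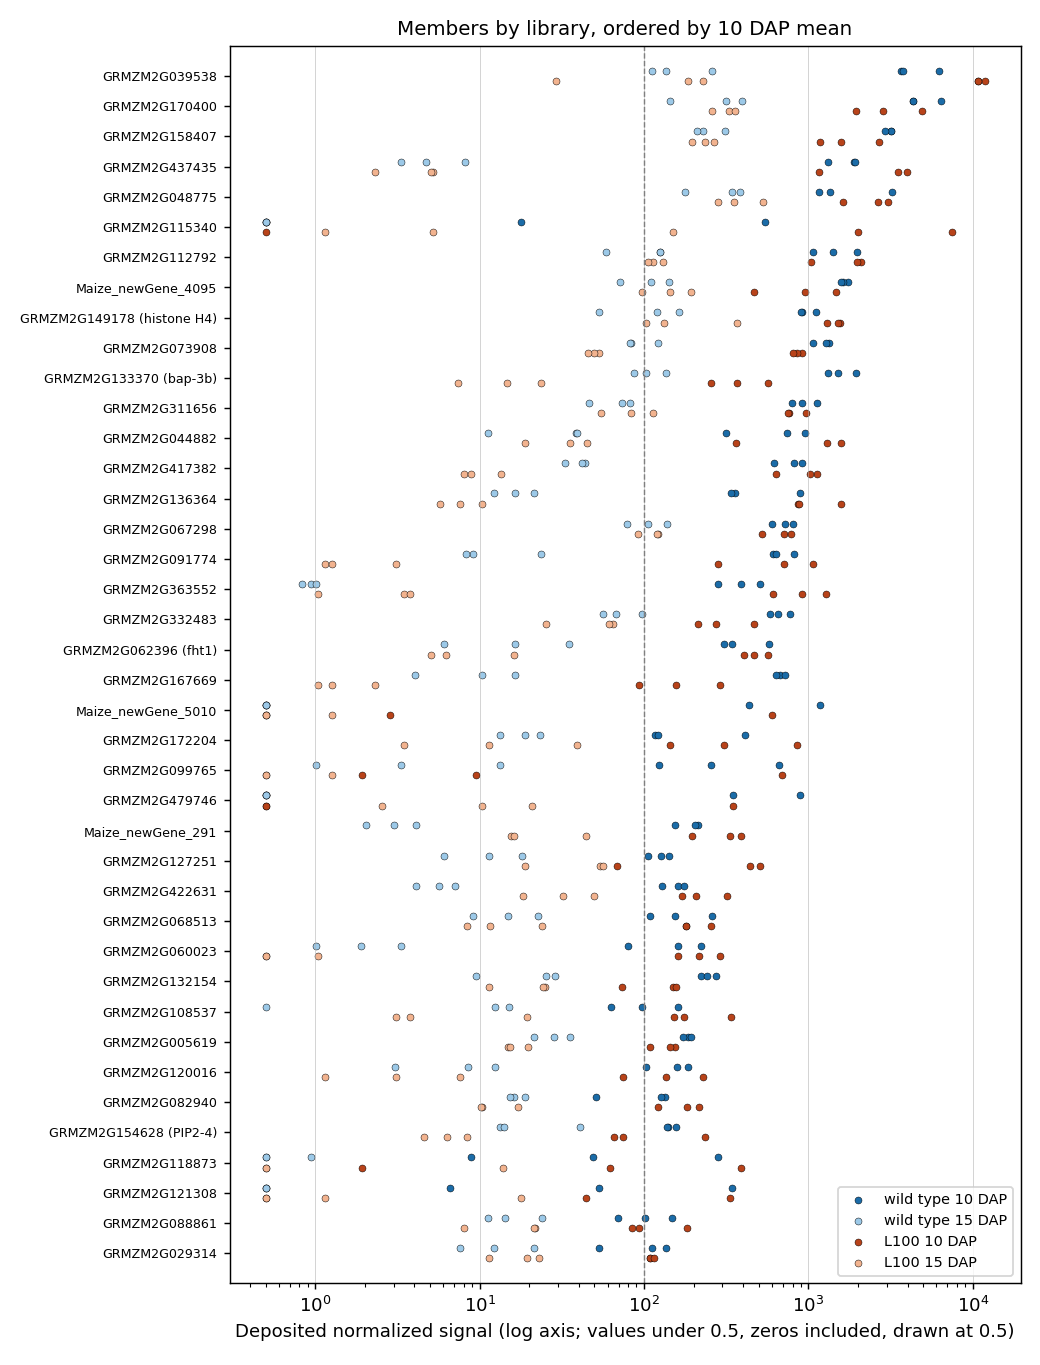
Deposited normalized signal (log axis) of each of the 40 members in each of the 12 libraries, coloured by group and ordered by the 10 DAP mean, with the level of 100 as a dashed line and values under 0.5 drawn at 0.5. The 15 DAP points lie to the left of the 10 DAP points for most members. A few members, at various heights in the figure, have 10 DAP points spread widely, some down to 0.

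The drop, the 10 DAP mean over the 15 DAP mean with the latter raised to the floor where it lay under it, had a median of 16.4 in wild type and 18.4 in L100. It ranged from 6.2 to 316.4 in wild type and from 6.02 to 686.3 in L100. In wild type 9 members dropped by less than 10-fold, 18 by 10- to 30-fold and 13 by 30-fold or more, and in L100 these numbers were 13, 12 and 15. The drop was 30-fold or more in both lines for 10 members and under 10-fold in both for 7. It was larger in L100 for 21 members and larger in wild type for 19.

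At 15 DAP the mean lay under the floor for 7 members in wild type and 6 in L100. In wild type 4 of those 7 had 0 counts in all 3 libraries, and in L100 no member did. The 10 and 15 DAP libraries did not overlap for 37 of the 40 members in wild type, where 26.1% of all genes tested lay lower at 15 DAP without overlap, and for 35 in L100, where 20.4% did. The rule used this contrast, so nothing is read from these counts. Several members were still well detected, with a 15 DAP mean above 100 for 9 members in wild type and 8 in L100. In 23 members of wild type and 19 of L100, the lowest 10 DAP library stood at least 6-fold above the highest 15 DAP library. The rule used these values too, so these counts are only described.

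**Figure D2:**
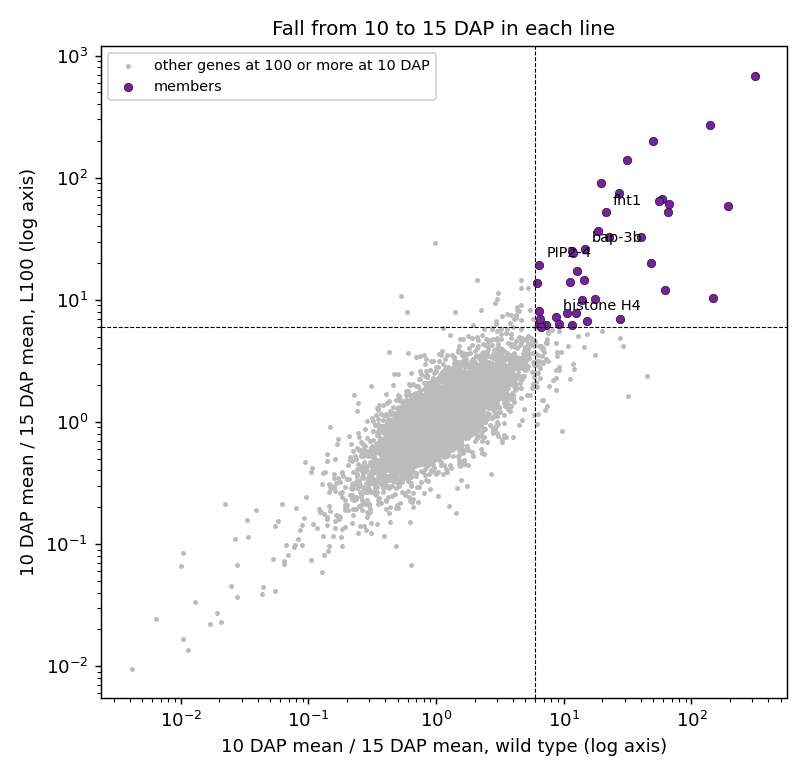
Drop in L100 against drop in wild type for each gene, both as 10 DAP mean over 15 DAP mean on log axes. A 15 DAP mean under the floor was raised to it, so such drops are lower bounds. Members lie at 6.02 or above on both axes, and GRMZM2G437435 lies farthest out, at 316.4 in wild type and 686.3 in L100.

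Of the 40 members, 4 had an informative symbol in the reference gene table. They were a basal layer antifungal protein, a histone H4, flavanone 3-hydroxylase and an aquaporin, and each is described first, with the other genes of its kind. Counts are given for the lists that held a member and for the cell cycle list, whose nearest gene lay just outside the rule.

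The transfer layer member was bap-3b (GRMZM2G133370, minus strand of chromosome 10, 81055765 to 81066315 on B73 RefGen_v3), one of the small secreted BAP proteins of the basal endosperm that take their name from activity against fungi. Its normalized signal was 1948, 1306 and 1502 in wild type at 10 DAP and 86.7, 103 and 137 at 15 DAP. In L100 it was 256, 368 and 564 at 10 DAP and 14.6, 7.36 and 23.6 at 15 DAP. Every L100 library lay under every wild-type library of its stage, and the drop was 14.6-fold in wild type and 26.1-fold in L100. A model on the opposite strand, Maize_newGene_1288, overlaps this gene and had means of 76.2 and 61.9 in wild type at 10 and 15 DAP and 32.9 and 0.0 in L100. The strand setting of the counting is not given, so reads of the 2 models may be mixed.

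Of the other 7 transfer layer markers, 4 fell and 1 rose in wild type, and 3 fell and 1 rose in L100. Over all 24941 genes tested, 15.3% fell and 16.1% rose in wild type, and 12.6% fell and 12.2% rose in L100. The median log2 fold change of the 7 markers was -0.97 in wild type and -0.74 in L100, beside -0.01 and -0.03 over all genes. bap2, a relative of bap-3b, fell in wild type (log2 fold change -1.94, SE 0.26, adjusted p = 0.00031) and in L100 (-1.84, SE 0.26, adjusted p = 0.00062). meg1, a maternally expressed gene of the transfer layer, fell in wild type (log2 fold change -1.57, SE 0.26, adjusted p = 0.001) and in L100 (-1.65, SE 0.26, adjusted p = 0.0011). The marker that rose was mrp1, the transcription factor that activates BETL genes, named here after its value was seen. Its log2 fold change was 1.31 (SE 0.43, adjusted p = 0.036) in wild type and 1.5 (SE 0.42, adjusted p = 0.023) in L100, and the wild-type call ended when libraries were scaled by their totals. That scaling moved the median of all genes by -0.32 in wild type and -0.30 in L100, and under it 6 of the 7 markers fell and none rose in wild type.

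The summed normalized signal of the 8 transfer layer markers was 26646 to 37488 in wild type at 10 DAP, 17541 to 31661 in L100 at 10 DAP, 9945 to 15750 in wild type at 15 DAP and 12714 to 15433 in L100 at 15 DAP. Replicate 2 of L100 at 10 DAP held the lowest of the 10 DAP sums. It also held the lowest sum of the starchy endosperm markers, 40241, where the other L100 libraries at 10 DAP reached 189133 and wild type held 102150 to 181058. At 15 DAP all 9 starchy endosperm markers had risen in both lines. Their part, and that of the transfer layer, in the values of the members was not tested.

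The histone member, GRMZM2G149178 (chromosome 10, 134830148 to 134830459), is a histone H4 model of 312 bases. Histone H4 is a core protein of the nucleosome and is made mainly while DNA is replicated. Its signal at 10 DAP was 1111, 910 and 898 in wild type and 1564, 1512 and 1301 in L100, and at 15 DAP it was 53.0, 120 and 162 in wild type and 102, 132 and 368 in L100. The drop was 8.7-fold in wild type and 7.27-fold in L100, with no overlap between the stages in either line, and the model no longer met the rule without replicate 1 of L100 at 15 DAP. GRMZM2G084195 and GRMZM2G181153 share its reference name, and plant H4 genes are nearly identical, so reads may be split between the 3 models in a way that is not known here. The difference between the lines did not pass the test at 10 DAP (log2 fold change 0.59, SE 0.43, adjusted p = 0.48) or at 15 DAP (0.82, SE 0.47, adjusted p = 0.34).

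Of the other 8 histone models, 6 fell in wild type and 3 in L100, and none rose in either. Their median log2 fold change was -1.66 in wild type and -1.17 in L100. his2b5, a histone H2B, fell in wild type (log2 fold change -2.32, SE 0.45, adjusted p = 0.0035) and in L100 (-2.02, SE 0.45, adjusted p = 0.0089). his2a1, a histone H2A, fell in wild type (log2 fold change -1.83, SE 0.26, adjusted p = 0.00034) and in L100 (-1.43, SE 0.25, adjusted p = 0.002). The L100 count became 5 without replicate 1 of wild type at 15 DAP and with DESeq2, and 6 when libraries were scaled by their totals.

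No cyclin, kinase, kinesin or replication gene of the 23 on that list was a member, but cyc3, a mitotic cyclin, was the nearest model outside the rule. Its mean was 285.2 ± 51.6 (SD, n = 3) at 10 DAP and 47.5 ± 8.0 (SD, n = 3) at 15 DAP in wild type, and 329.5 ± 76.6 (SD, n = 3) and 55.3 ± 4.5 (SD, n = 3) in L100. The ratios were 6.0 and 5.96. Of the list, 12 fell and 1 rose in wild type, and 12 fell and none rose in L100, with medians of -1.57 and -1.04. These counts include cyc3, whose place next to the rule brought in the list, so they are only described. The ratios that place cyc3 beside the threshold are the same contrast, so no test of it is given. The kinesin gene kin2 (GRMZM2G136838) fell in wild type (log2 fold change -2.38, SE 0.15, adjusted p = 7e-06) and in L100 (-2.13, SE 0.15, adjusted p = 1.6e-05). Another model that matched the name kin2, GRMZM2G180704, did not pass in wild type (-0.21, SE 0.17, adjusted p = 0.37). In L100 that model fell less (-0.52, SE 0.17, adjusted p = 0.038).

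Flavanone 3-hydroxylase, fht1 (GRMZM2G062396, chromosome 2, 3561590 to 3563021), converts flavanones to dihydroflavonols, the branch that leads to anthocyanins and flavonols. It stood at 578, 308 and 340 in wild type at 10 DAP and at 469, 566 and 403 in L100. At 15 DAP it stood at 35.0, 6.12 and 16.6 in wild type and at 6.26, 16.1 and 5.07 in L100. The stages did not overlap in either line, and the lines overlapped at both stages. The drop was 21.3-fold in wild type and 52.4-fold in L100.

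The rest of the flavonoid list went with it only in part. Of the other 8 genes, 2 fell and none rose in wild type, and 1 fell and 1 rose in L100. a1, dihydroflavonol reductase, which acts next after flavanone 3-hydroxylase, fell in wild type (log2 fold change -1.95, SE 0.36, adjusted p = 0.0023) and in L100 (-1.73, SE 0.35, adjusted p = 0.0053). The gene that rose in L100, named after its value was seen, was c2, chalcone synthase, the first enzyme of the pathway, with a log2 fold change of 1.62 (SE 0.39, adjusted p = 0.011). In wild type the value of c2 was 1.0 (SE 0.39, adjusted p = 0.073). The list median was -0.58 in wild type and -0.51 in L100, and with libraries scaled by their totals 3 of the 8 fell in L100.

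The aquaporin PIP2-4 (GRMZM2G154628, chromosome 5, 195240006 to 195242387) is a water channel of the plasma membrane. Its signal at 10 DAP was 141, 156 and 139 in wild type and 74.7, 234 and 66.0 in L100. At 15 DAP it was 13.2, 40.8 and 14.1 in wild type and 8.34, 4.6 and 6.34 in L100, so at 15 DAP every L100 library lay under every wild-type library. That difference did not pass the test (log2 fold change -1.79, SE 0.64, adjusted p = 0.12). The drop was 6.4-fold in wild type, near the threshold, and 19.4-fold in L100. The L100 mean at 10 DAP rests largely on replicate 2, and PIP2-4 no longer met the rule without that library, without replicate 1 or 3 of wild type at 15 DAP, or with the median of the 3 libraries.

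Other aquaporins did not share one direction. Of 21 tested, 5 fell and 6 rose in wild type, and 5 fell and 4 rose in L100, with medians of -0.26 and 0.09. tip4-4, a channel of the vacuolar membrane, fell in wild type (log2 fold change -3.41, SE 0.34, adjusted p = 5.3e-05) and in L100 (-2.10, SE 0.32, adjusted p = 0.00086). pip1-5 fell in wild type (log2 fold change -1.97, SE 0.55, adjusted p = 0.018) and in L100 (-2.88, SE 0.56, adjusted p = 0.0036). The wild-type call of pip1-5 ended without replicate 1 of wild type at either stage and with limma-voom.

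**Figure D3:**
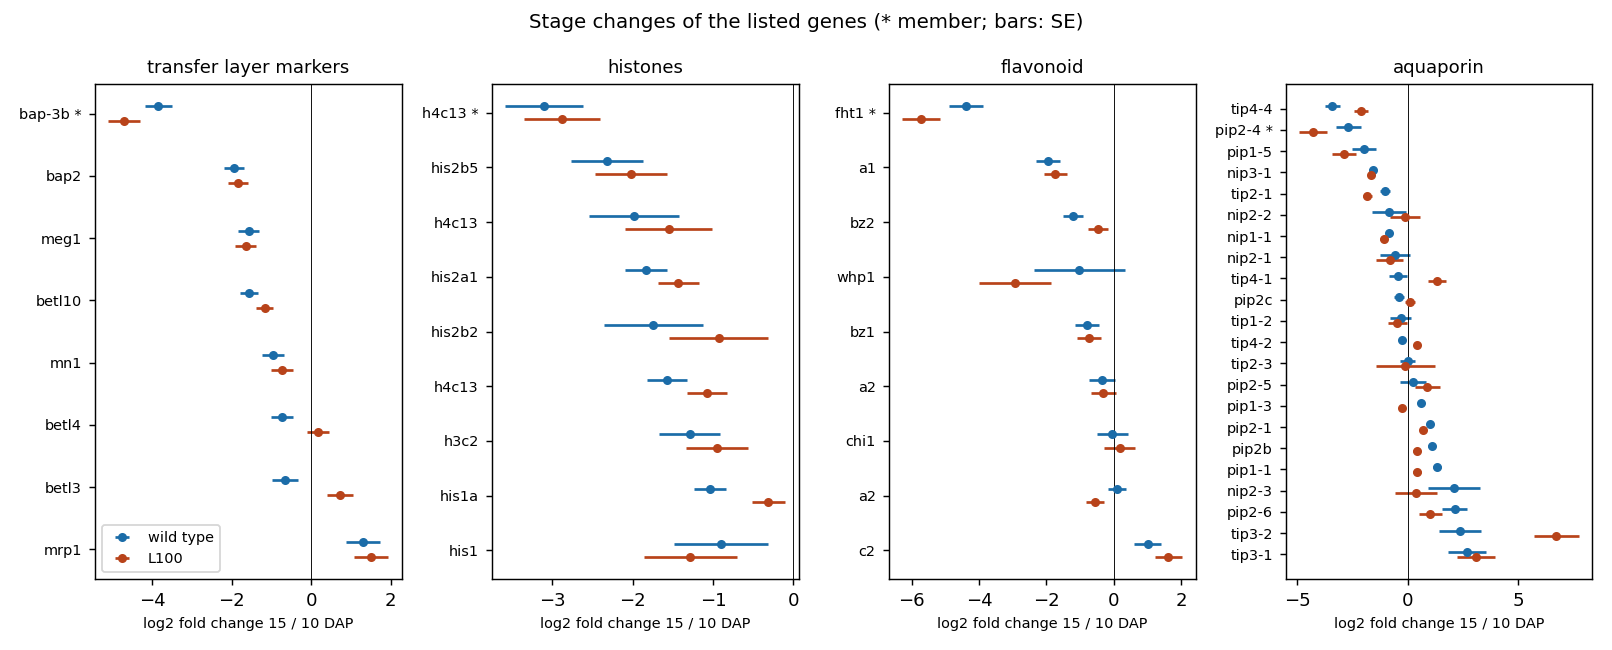
Log2 fold change of 15 DAP over 10 DAP, with SE as bars, for the transfer layer, histone, flavonoid and aquaporin lists in wild type (blue) and L100 (red), with members starred. The 8 other histone models lie under 0, with a median of -1.66 in wild type, and the aquaporins lie on both sides.

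The other 36 members have no name in the sources used here that tells a function, and they include the members with the highest normalized signal. GRMZM2G039538 was the highest, at 6192, 3651 and 3759 in wild type at 10 DAP and 10707, 11763 and 10679 in L100. At 15 DAP it held 258, 136 and 112 in wild type and 227, 186 and 29.2 in L100. All L100 libraries lay above all wild-type libraries at 10 DAP, but the difference did not pass the test (log2 fold change 1.30, SE 0.52, adjusted p = 0.20). The drop was 26.9-fold in wild type and 74.9-fold in L100.

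GRMZM2G170400 followed with 6402, 4320 and 4323 in wild type and 1957, 2839 and 4876 in L100 at 10 DAP. It kept 144, 394 and 317 in wild type and 328, 355 and 260 in L100 at 15 DAP, so it remained above the level of 100 that defined a high gene at 10 DAP. GRMZM2G158407 held 3189, 3183 and 2938 in wild type and 2689, 1585 and 1172 in L100 at 10 DAP, and 230, 210 and 313 in wild type and 236, 197 and 268 in L100 at 15 DAP. Its model has only 267 bases, and per length it was the highest member, with a mean FPKM of 1669.7 over both lines at 10 DAP. Across members the 10 DAP FPKM ranged from 3.17 to 1669.7 with a median of 24.9.

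Drops of members under the floor at 15 DAP are lower bounds, so the largest drop is not known. With the 15 DAP means raised to the floor, GRMZM2G437435 had the largest in both lines. It held 1313, 1904 and 1909 in wild type and 3982, 3502 and 1153 in L100 at 10 DAP, and 4.73, 8.16 and 3.31 in wild type and 5.21, 2.30 and 5.07 in L100 at 15 DAP. The 15 DAP values are near the floor, so the sizes of 316.4 and 686.3 rest on a few counts. GRMZM2G091774 held 611, 814 and 635 in wild type and 705, 1069 and 284 in L100 at 10 DAP, with 8.27 to 23.7 in wild type and 1.15 to 3.13 in L100 at 15 DAP. GRMZM2G060023 held 222, 79.8 and 161 in wild type and 162, 291 and 215 in L100 at 10 DAP. At 15 DAP no library of it exceeded 3.31, so no fold is given.

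Of the other members among the 12 with the highest 10 DAP mean, 4 are given here. GRMZM2G048775 stood at 3224, 1156 and 1360 in wild type and 2639, 3057 and 1615 in L100 at 10 DAP, and at 177 to 384 and 281 to 529 at 15 DAP, with drops of 6.35- and 6.28-fold. GRMZM2G048775 no longer met the rule without replicate 1 of wild type or replicate 2 of L100 at 10 DAP. The same held without replicate 2 of either line at 15 DAP, and with the median of the 3 libraries. GRMZM2G112792 stood at 1961, 1071 and 1407 in wild type and 2087, 1979 and 1034 in L100 at 10 DAP, with nearly equal drops of 14.3- and 14.6-fold. Maize_newGene_4095, a model named by the authors, stood at 1737, 1622 and 1585 in wild type and 1479, 955 and 466 in L100. Its L100 libraries all lay under the wild-type libraries at 10 DAP, but the difference did not pass the test (log2 fold change -0.76, SE 0.37, adjusted p = 0.28). GRMZM2G311656 stood at 907, 797 and 1122 in wild type and 969, 758 and 756 in L100, with drops of 13.9- and 9.9-fold.

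Members outside the 12 with the highest 10 DAP mean included GRMZM2G044882, GRMZM2G136364 and GRMZM2G332483. GRMZM2G136364 held 882, 357 and 339 in wild type and 863, 1584 and 878 in L100 at 10 DAP, and 12.3, 21.4 and 16.6 in wild type and 10.4, 5.75 and 7.61 in L100 at 15 DAP. GRMZM2G044882 held 957, 317 and 744 in wild type and 363, 1290 and 1575 in L100 at 10 DAP, and 11.2 to 38.9 and 19.0 to 44.8 at 15 DAP. The lines overlapped at 10 DAP for both genes. The drop of GRMZM2G136364 was 31.4-fold in wild type and 139.8-fold in L100, and that of GRMZM2G044882 22.7- and 32.4-fold.

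GRMZM2G332483, on chromosome 4, held 772, 584 and 657 in wild type and 470, 275 and 213 in L100 at 10 DAP, without overlap, and 56.1 to 96.8 and 25.3 to 64.6 at 15 DAP. GRMZM2G127251 went the other way in part, with 127, 106 and 141 in wild type and 443, 504 and 68.6 in L100, where replicate 3 stood low. Neither passed the test between the lines at either stage. The last 7, GRMZM2G172204, GRMZM2G068513, GRMZM2G132154, GRMZM2G108537, GRMZM2G005619, GRMZM2G120016 and GRMZM2G088861, had 10 DAP means of 106.4 to 434.6 and 15 DAP means of 3.96 to 28.5. Their drops ranged from 6.27- to 36.9-fold, and none of them differed between the lines by the test.

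The threshold passes through a continuous range of ratios. Just inside lay GRMZM2G067298 with ratios of 6.58 in wild type and 6.02 in L100, from means of 706.3 and 672.4 at 10 DAP. GRMZM2G082940 had ratios of 6.2 and 13.7 and GRMZM2G029314 of 7.28 and 6.2, and the 10 DAP mean of GRMZM2G029314 in wild type, 100.3, was also the closest to the level threshold. Just outside, after cyc3, lay GRMZM2G148188 with 5.69 and 6.96 and GRMZM5G801949-2 with 8.02 and 5.65. A 4-fold drop in place of a 6-fold drop would have found 106 models, and an 8-fold drop 26. In wild type 99 of the 15041 models met the one-sixth ratio and in L100 69 did, while 46 models stood at least 6-fold higher at 15 DAP in both lines.

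Members varied more among the 10 DAP libraries of a line than the 15041 models that reached the level threshold. Those models include the members and were not matched to them in signal. The rule used the means of the same libraries, which a single high library can raise. Part of the wider spread may therefore come from the rule, so it is only described. The highest of the 3 libraries over the lowest had a median of 1.75 in wild type and 2.18 in L100 over the members, beside 1.19 and 1.33 over the 15041 models. In 6 members this ratio was 10 or more in at least one line, a description made after the values were seen. Of the 15041 models, 0.219% reached it in wild type and 0.592% in L100.

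In these 6 members, single libraries carried the 10 DAP mean. GRMZM2G115340 held 0.0, 543 and 17.8 in wild type and 7482, 2012 and 0.0 in L100 at 10 DAP, and at 15 DAP it was at 0 in all wild-type libraries and at 5.21, 1.15 and 151 in L100. Maize_newGene_5010 held 0.0, 1170 and 436 in wild type and 2.87, 0.0 and 602 in L100 at 10 DAP. GRMZM2G479746 held 0.0, 884 and 347 in wild type and 0.0, 0.0 and 346 in L100. Replicates 2 and 3 of wild type and replicate 3 of L100 were thus the libraries with signal for the latter pair.

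GRMZM2G118873 and GRMZM2G121308 had another pattern, which they shared. GRMZM2G118873 held 282, 8.86 and 48.9 in wild type and 1.92, 62.5 and 388 in L100 at 10 DAP. GRMZM2G121308 held 342, 6.65 and 53.3 in wild type and 0.0, 44.3 and 332 in L100. GRMZM2G099765 held 256, 663 and 124 in wild type and 1.92, 9.55 and 686 in L100, so its spread was wide only in L100. At 15 DAP the highest library of these 3 models was 13.2 in wild type and 17.8 in L100.

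In wild type at 15 DAP GRMZM2G115340, Maize_newGene_5010, GRMZM2G479746 and GRMZM2G121308 were at 0 in every library. Against the floor of 3 counts per library their 10 DAP means were at least 66.9-, 191.7-, 146.9- and 48.0-fold higher. With the median of the 3 libraries in place of the mean, 31 models met the rule, 27 of them among the 40, and none of the 6 was among these. Without replicate 3 of L100 at 10 DAP 5 of the 6 no longer met the rule, without replicate 1 of wild type at 10 DAP 2 did not, and without replicate 2 of wild type at 10 DAP 1 did not. The other 34 members had a ratio under 10 in both lines. GRMZM2G115342 overlaps GRMZM2G115340 on the same strand and was not lower at 15 DAP in both lines, with means of 691.2 and 451.1 in wild type and 959.0 and 1096.7 in L100, so the split of reads between this pair is uncertain.

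**Figure D4:**
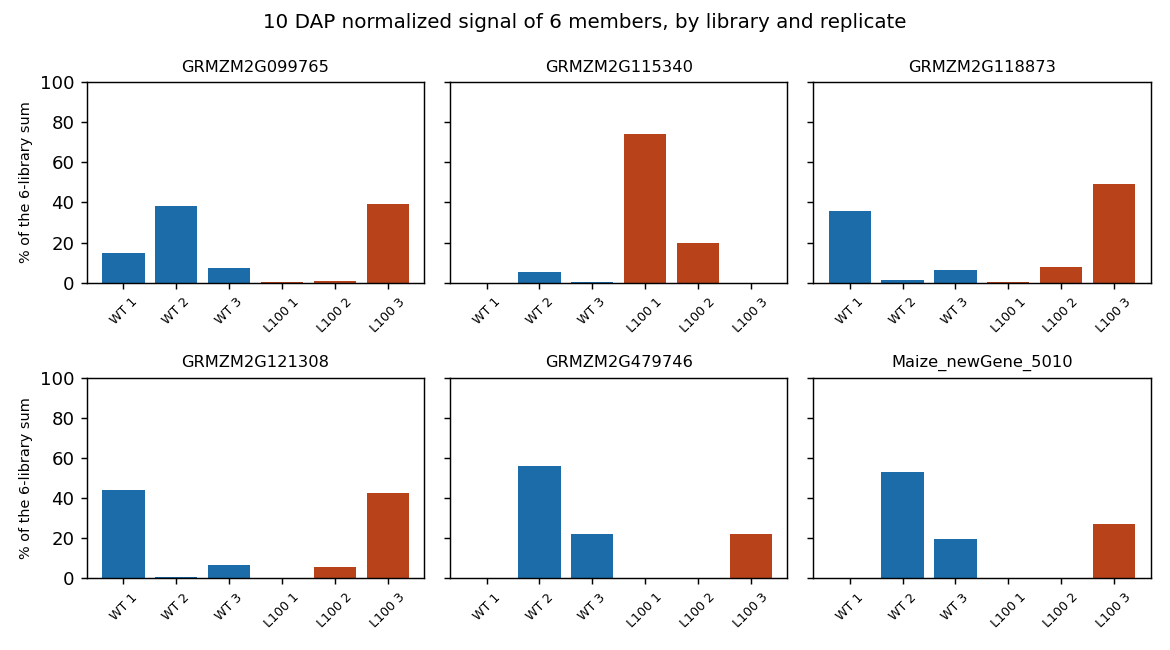
Share of the summed 10 DAP normalized signal (percent of the 6 libraries) in each 10 DAP library for the 6 members whose libraries spread by 10-fold or more in a line. One or 2 libraries hold most of the signal of each, and the library differs between members.

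The remaining question was whether L100 differed from wild type in these genes. The rule made no comparison between the lines, but it bounds each value: both lines had to reach 100 at 10 DAP, and the 15 DAP mean of each line could be at most one sixth of its 10 DAP mean. At 10 DAP 3 of the 40 members differed (7.5%), 1 higher and 2 lower in L100, where 3.0% of all 24941 genes tested differed, 1.76% higher and 1.24% lower. For 11 members the wild-type and L100 libraries stood fully apart (27.5%), as they did for 27.3% of all genes, a share near the background. The median log2 fold change of L100 over wild type was 0.20 for the members and 0.01 for all genes. The median SE of the members was 0.38, and that of all genes 0.24.

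bap-3b was the clearest difference at 10 DAP, with a log2 fold change of -1.99 (SE 0.30, adjusted p = 0.0063), lower in 3 of 3 L100 libraries. This call held in each alternative tried. GRMZM2G167669 held 672, 721 and 634 in wild type and 93.0, 157 and 291 in L100, with a log2 fold change of -1.89 (SE 0.37, adjusted p = 0.022). GRMZM2G363552 held 507, 390 and 281 in wild type and 918, 1278 and 608 in L100, with a log2 fold change of 1.27 (SE 0.27, adjusted p = 0.030). For both, the 3 libraries of one line lay apart from those of the other, but each call ended when any of 4 single libraries was left out. The adjusted p of GRMZM2G167669 was then 0.056 to 0.087, without any 1 of the wild-type libraries or without replicate 2 of L100. That of GRMZM2G363552 was 0.065 to 0.13, without replicate 2 or 3 of wild type or replicate 1 or 2 of L100, all at 10 DAP. Fitted on the 10 DAP groups alone, the adjusted p was 0.058 for GRMZM2G167669 and 0.098 for GRMZM2G363552.

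GRMZM2G363552 and GRMZM2G167669 were close to undetected at 15 DAP. GRMZM2G363552 had 0.83 to 1.02 in wild type and 1.04 to 3.80 in L100, all near or under the floor. GRMZM2G167669 had 4.08 to 16.6 in wild type and 1.04 to 2.30 in L100.

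At 15 DAP, where only the residual signal was left, 5 of the 40 members differed between the lines (12.5%), 2 higher and 3 lower in L100, and 6.66% of all genes did, 3.57% higher and 3.09% lower. The libraries did not overlap for 16 members (40%), beside 30% of all genes. The median log2 fold change was -0.08 for the members and -0.01 for all genes, and the median SE was 0.54 and 0.24. bap-3b was again lower in 3 of 3 L100 libraries, with a log2 fold change of -2.84 (SE 0.41, adjusted p = 0.0034), and this call too held in each alternative tried.

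GRMZM2G417382 and GRMZM2G073908 were also lower in L100 at 15 DAP. GRMZM2G073908 held 122, 83.6 and 81.9 in wild type and 53.2, 49.5 and 45.6 in L100, a log2 fold change of -0.96 (SE 0.18, adjusted p = 0.010). At 10 DAP it held 1326, 1068 and 1271 in wild type and 910, 857 and 806 in L100, also without overlap. That 10 DAP difference did not pass the test (log2 fold change -0.5, SE 0.15, adjusted p = 0.091). The 15 DAP call of GRMZM2G073908 ended with limma-voom (adjusted p = 0.06) and when the 15 DAP groups were fitted alone (adjusted p = 0.075).

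Both members that were higher in L100 at 15 DAP are neighbours. Maize_newGene_291 and GRMZM2G422631 lie 4.9 kb apart on opposite strands of chromosome 1 and were the only members within 50 kb of each other. GRMZM2G422631 held 162, 129 and 176 in wild type and 171, 207 and 321 in L100 at 10 DAP, and 5.69, 7.14 and 4.14 in wild type and 32.3, 18.4 and 49.5 in L100 at 15 DAP. Its log2 fold change at 15 DAP was 2.47 (SE 0.43, adjusted p = 0.0073), higher in 3 of 3 libraries. GRMZM2G422631 no longer met the rule without replicate 3 of L100 at 10 DAP or replicate 2 of L100 at 15 DAP. Maize_newGene_291 held 212, 155 and 204 in wild type and 195, 390 and 332 in L100 at 10 DAP. At 15 DAP it held 3.0, 2.04 and 4.14 in wild type and 15.6, 16.1 and 44.4 in L100. The log2 fold change was 2.84 (SE 0.53, adjusted p = 0.011), and the wild-type values are near the floor. Maize_newGene_80 overlaps Maize_newGene_291 on the opposite strand. Its means were 3.5 and 2.5 in wild type at 10 and 15 DAP and 8.3 and 0.0 in L100. The strand setting of the counting is not given, so reads of this pair may be mixed. The call of Maize_newGene_291 ended without replicate 2 of wild type at 15 DAP (adjusted p = 0.053), and both calls ended with limma-voom (adjusted p = 0.19 and 0.11).

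The size of the drop differed between the lines for 1 of the 40 members (2.5%), where 0.545% of all genes tested had such an interaction. GRMZM2G417382 held 916, 614 and 818 in wild type and 637, 1124 and 1017 in L100 at 10 DAP, with overlap. At 15 DAP it held 33.1, 43.8 and 42.2 in wild type and 13.6, 8.05 and 8.88 in L100, so all L100 libraries lay lower. Its drop was 19.7-fold in wild type and 91.1-fold in L100. The log2 fold change of L100 over wild type at 15 DAP was -1.87 (SE 0.34, adjusted p = 0.0089), a call that ended with limma-voom (adjusted p = 0.19). The difference between the stages was -2.12 (SE 0.40, adjusted p = 0.047). The interaction call ended in 11 of the 12 fits that left out 1 library, with log2 values of -2.40 to -1.92, and remained only without replicate 1 of L100 at 10 DAP. The rule bounds the drop from below in both lines, so this comparison is partly conditioned by it.

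**Figure D5:**
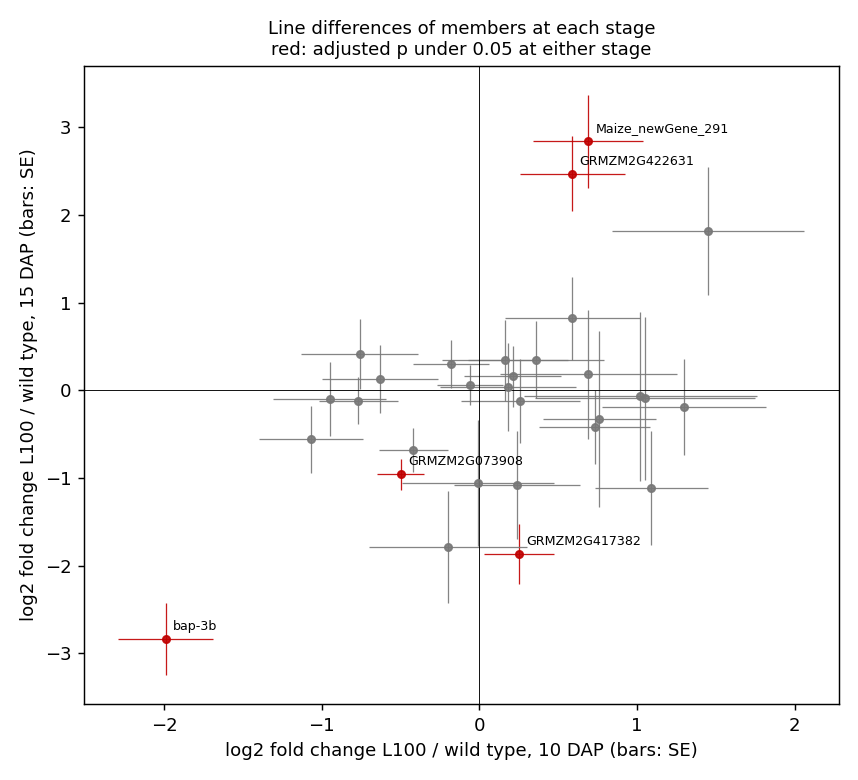
Log2 fold change of L100 over wild type at 15 DAP against that at 10 DAP, with SE as bars, for the 30 members whose 15 DAP means reached the floor of 3 counts. Members past the threshold at either stage are red. The 10 members not drawn include GRMZM2G167669 and GRMZM2G363552, which passed the test at 10 DAP. bap-3b lies lowest on the left, at -1.99 and -2.84, and the neighbours GRMZM2G422631 and Maize_newGene_291 lie highest, at 2.47 and 2.84 at 15 DAP.

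The rule did not use the length of a model. The members' median transcript length was 1188 bases and their median span on the genome 1924 bases, beside 1699 and 4422 for the 15041 models that reached the level threshold, and 1097.5 and 2171 for all 41430 models. Of the 40 members 9 were longer than 1699 bases. Models that the authors named Maize_newGene, whose making is not given in the sources used here, made up 3 of the 40 (7.5%) and 2.73% of the 15041. The reference gene table matched 30 of the 40 (75.0%) and 73.7% of the 15041. By chromosome, 7 members lay on each of chromosomes 2 and 4, 6 on chromosome 1, 5 on each of chromosomes 6 and 10, 4 on chromosome 5, 2 on each of chromosomes 7 and 9, and 1 on each of chromosomes 3 and 8. The closest pair after the neighbours on chromosome 1 was Maize_newGene_4095 and GRMZM2G332483 on chromosome 4, 232.5 kb apart.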

How the data were processed

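RNA was measured in 12 libraries of whole maize seeds, 3 per group. Per the labels' protocols, CTAB was used to extract total RNA from frozen seeds, for standard Illumina libraries. The submitters' processing notes name the B73 RefGen_v3 build and Bowtie 0.12.2, while the quantifier, annotation release and strand setting are not given here. Each table the authors deposited lists 41430 models with an expected count, written as a whole number per the file headers. Judged from its values, the normalized signal that the authors deposited is that estimate times a factor for the library, whose origin is not known. The FPKM column of the authors' tables, scaled by length and depth, served only to compare levels between genes.

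Members were found from the normalized signal by the rule in the report. Differences between groups were tested on the counts in R 4.3.3 with edgeR 4.0.16 (TMM scaling, filterByExpr, robust quasi-likelihood fit, 1 mean per group over all 12 libraries). Two-sided p-values were adjusted over 24941 genes by the Benjamini-Hochberg method, with a threshold of 0.05 for a call. The scripts were tested on simulated data. The members and gene lists were chosen with earlier results of these data known.

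Genes named were the 12 members with the highest 10 DAP mean, the 8 with the largest drop by the smaller of the lines' drops, members with an informative symbol, members past a test between the lines, the 3 on each side of the threshold, members within 50 kb of each other, and up to 2 non-members per list that fell most in both lines. Names came from a RefSeq table (Zm-B73-REFERENCE-NAM-5.0), which matched 18021 models, and coordinates from the deposited tables. A description of proteins and promoters was planned but not made, since no sequence was used here. Alternatives were DESeq2 1.42.0, limma-voom 3.58.1, other scalings and filters, a replicate block, the compared groups alone and each library left out.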

Additional observations from a re-analysis of the deposited data

Results flagged for a closer look

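GRMZM2G417382 stood out because its difference between L100 and wild type passed the interaction test. The log2 fold change at 15 DAP minus that at 10 DAP was -2.12 (SE 0.40, edgeR quasi-likelihood adjusted p = 0.047). This call ended in 11 of the 12 fits that left out 1 library. It also ended with limma-voom, with libraries scaled by their totals and with the replicate block. The rule bounds the drop in both lines, so the comparison is partly conditioned by it. At 15 DAP 3 of 3 L100 libraries lay under all wild-type libraries.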

How the results depend on the processing

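The rule found 106 models with a 4-fold drop, 26 with an 8-fold drop and 22 with a level of 200, and 36 to 45 when 1 library was left out. Of the members, 3 differed between the lines at 10 DAP, 6 with DESeq2 and 1 to 6 with 1 library left out. That count was 1 without replicate 2 or 3 of wild type or replicate 2 of L100 at 10 DAP, and 6 without replicate 3 of L100 at 10 DAP. At 15 DAP 5 differed, 11 with DESeq2, 1 with limma-voom and 4 to 8 with 1 library left out, 8 being without replicate 3 of L100 at 10 DAP. The interaction called 1 member, and 7 with DESeq2. It called 0 with limma-voom, with libraries scaled by their totals or with the replicate block, and 0 to 1 with 1 library left out. The shares over all genes under these alternatives are not given here, so these counts have no background beside them and are only described. No direction turned for the 7 members named as different. Counts of listed genes that changed with stage, 141 in wild type and 123 in L100, moved by less than 1.5 times.

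Deviations of libraries with the same replicate number correlated at -0.106 to 0.027, so the numbers did not pair the libraries, and the replicate block left the counts at 3 and 5. The interaction was not fitted to 2 groups alone. At 15 DAP many members lie near the floor of 3 counts, where 15 DAP levels and the sizes of drops rest on few counts.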
